A study of Drosophila melanogaster with 6 samples.

Results

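The H3K4me3 and H3K4me1 peak lists were compared for how the peaks of the 2 marks lie relative to each other on the main chromosome arms of Kc167. This Drosophila melanogaster line was established from late embryos and is female. The members are the peaks on 2L, 2R, 3L, 3R, X and 4, which excludes the assembled heterochromatin scaffolds and the unplaced collections U and Uextra. They number 9412 for H3K4me3 and 9529 for H3K4me1, together 18941 of the 49322 peaks in the 6 lists of the series. The series used ChIP-seq, the sequencing of DNA recovered with an antibody to a chromatin protein, on untreated cells kept in serum-free medium. Its 6 libraries, 1 per antibody and without replicates, were made with antibodies to H3K4me3, H3K4me1, H3K27ac, JIL-1, H3K9acS10ph and H3K27acS28ph. With 1 library per antibody no test between libraries is possible. The 95% intervals given here are exact binomial (Clopper-Pearson) intervals for shares, or combine those of 2 shares for a difference. They treat peaks as independent, and they cover counting error only. Read depth is unknown, and fewer modified cells cannot be told apart from less modification per cell. The identity of the cells could not be checked against marker genes, because the lists hold positions without gene levels.

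Lysine 4 of histone H3 can carry 1, 2 or 3 methyl groups, and the same lysine cannot carry the mono- and the trimethyl form at the same time. H3K4me3 is known as a mark of active promoters, where in flies Set1 is the main trimethylating enzyme. H3K4me1 is typical of enhancers and is also found beside promoters, and Trithorax-related is its main enzyme in flies. H3K27ac, written by the acetyltransferase Nejire, accompanies active promoters and enhancers. The kinase JIL-1 adds phosphate to histone H3 outside mitosis. H3K9acS10ph and H3K27acS28ph are forms in which a phosphorylated serine follows an acetylated lysine.

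Most H3K4me3 peaks shared sequence with H3K4me1, and few stood between H3K4me1 peaks without touching them. Of the 9412 H3K4me3 peaks, 6498 were covered, meaning that they shared at least 1 bp with an H3K4me1 peak (69.0%, interval 68.1 to 70.0). Another 97 were flanked on 2 sides, with an H3K4me1 edge within 1000 bp on both sides and no overlap (1.03%, 0.837 to 1.26). A further 598 were flanked on 1 side (6.35%, 5.87 to 6.87), and 2219 were free of H3K4me1 within that distance (23.6%, 22.7 to 24.4). By length, 59.1% of the sequence under H3K4me3 also lay under H3K4me1, and 33.4% of the sequence under H3K4me1 lay under H3K4me3. The shares depend on peak width and list length. With every peak set to 1000 bp around its midpoint, 40.9% of H3K4me3 peaks were covered and 35.9% free, and with only the 3223 arm peaks of highest score kept in each list, the length of the shortest, 46.8% were covered and 45.0% free.

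Covered peaks fell into distinct geometries. In 2534 of them, 39.0% of the covered peaks, the H3K4me1 peak lay over 1 of the 2 edges and left the other edge open (staggered). In 1854 (28.5%, 27.4 to 29.6) a single H3K4me1 peak held the whole H3K4me3 peak (inside). In 1684 (25.9%) the H3K4me3 peak reached across the gap between neighbouring H3K4me1 peaks and had both edges under H3K4me1 (bridging). The remaining 153 held an H3K4me1 peak within their own borders, and 273 met several H3K4me1 peaks with at least 1 outer edge open. The map of called peaks shows an example of each layout, chosen as the peak with the width nearest the median of its layout.

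**Figure D1:**
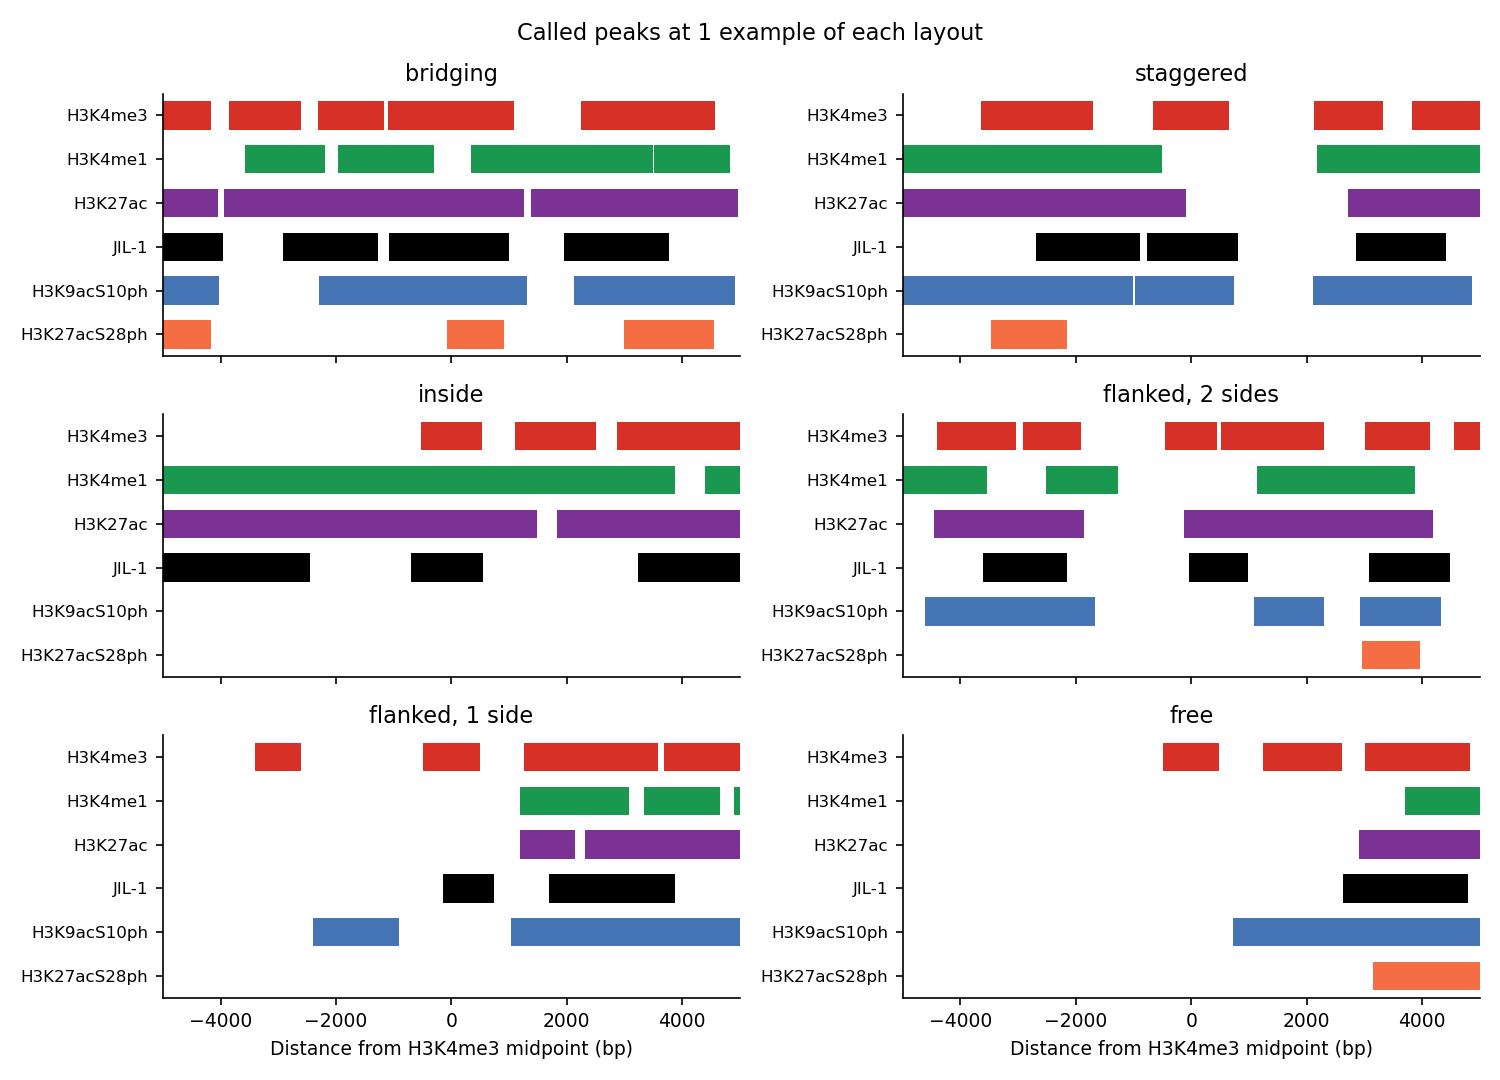
Called peaks of the 6 lists (bars) around 1 H3K4me3 peak of each layout, plotted by distance from its midpoint in bp. The bridging peak of 2186 bp spans the gap between 2 H3K4me1 peaks, the staggered peak of 1318 bp meets H3K4me1 at 1 edge, and the free peak of 968 bp has no H3K4me1 within 1000 bp.

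The edges show how far the marks reached into each other. In bridging peaks with exactly 2 H3K4me1 peaks (1583 of 1684), the H3K4me1-free gap had a median width of 456 bp (quartiles 232 and 700) and took up a median of 21.1% of the H3K4me3 width. The gap was not always central: its centre lay a median of 278 bp from the H3K4me3 midpoint, on either side, and in 706 of the 1583 (44.6%, 42.1 to 47.1) the midpoint itself lay in the gap. In staggered peaks a median of 846 bp, or 67.1% of the H3K4me3 peak, lay under H3K4me1, which continued for a median of 1074.5 bp beyond the covered edge. H3K4me1 lay towards higher coordinates in 1223 of the 2534 (48.3%, 46.3 to 50.2) and towards lower coordinates in the rest. Gene strands are not used here, so the 2 sides could not be named upstream and downstream. From the open edge the next H3K4me1 peak was a median of 1270 bp away, and it lay within 1000 bp in 1166 of the 2534. H3K4me1 peaks that held an H3K4me3 peak whole were broad, and a holding peak must be wider than the peak it holds. Their median width was 5001 bp, taken over the H3K4me3 peaks they held, against 1809 bp for all H3K4me1 arm peaks. Within them the H3K4me3 peak stood off centre by a median of 38.3% of the way from the H3K4me1 centre to its edge.

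Midpoints of the 2 marks lay apart, and their distances rose in an order largely set by the layouts, which are defined by distance between edges. The nearest H3K4me1 midpoint was a median of 841 bp from the H3K4me3 midpoint for covered peaks, 1598.5 bp for peaks flanked on 2 sides, 1920.5 bp for peaks flanked on 1 side and 7670.5 bp for free peaks. It lay towards lower coordinates for 4771 and towards higher coordinates for 4641 of all H3K4me3 peaks, a nearly even division. The position profile shows where the gap, which bridging peaks have by definition, lay along them. At the midpoint 57.5% of bridging peaks were under H3K4me1, against 92.5% and 92.2% at 1000 bp to either side.

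**Figure D2:**
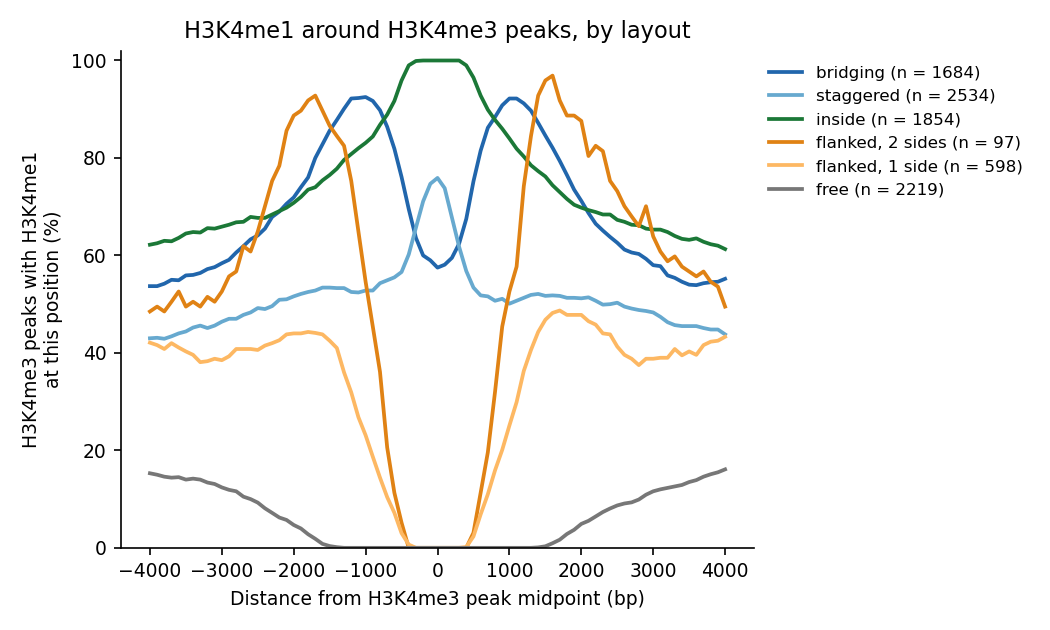
Share of H3K4me3 peaks (%) that have an H3K4me1 peak at each distance (bp) from the H3K4me3 midpoint, 1 line per layout. Bridging peaks dip to 57.5% at the midpoint, all peaks inside H3K4me1 have it there by definition, and the 2 flanked layouts and the free layout are at 0 there by definition.

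Strong and weak H3K4me3 peaks had different layouts. The deposited score, whose scale the files do not state, was compared only between peaks of the same list and piles up at 3100. Covered peaks had a median score of 1531 (quartiles 154 and 3100), against 145 for peaks flanked on 2 sides, 106 for peaks flanked on 1 side and 89.3 for free peaks (65.3 and 149). A score of at least 3100 was reached by 2512 covered peaks (38.7%), 7 peaks flanked on 2 sides (7.22%), 20 flanked on 1 side (3.34%) and 12 free peaks (0.541%, 0.280 to 0.943). Within the covered class the geometries separated as widely. Bridging peaks had a median score of 3100 (lower quartile 2251) and staggered peaks of 2106, against 122 (74.5 and 252) for peaks inside H3K4me1, which is close to the 89.3 of free peaks. The H3K4me1 peaks around those inside peaks were themselves strong within their own list, with a median score of 3100 over the H3K4me3 peaks they held, against 1215 for all H3K4me1 arm peaks.

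Divided by score, the inside layout made up 33.1% of the 1715 H3K4me3 peaks that scored 133 to 407, and 2.39% (1.83 to 3.06) of the 2551 peaks at 3100 or above. The bridging layout made up 4.90% and 44.6% of the same classes. Free peaks made up 48.4% of the weakest class, with scores up to 75.1, and 0.470% of the strongest. Among covered peaks the midpoint lay under H3K4me1 in 89.7% (87.1 to 91.9) of the weakest class and in 70.0% (68.2 to 71.8) of the strongest. The strongest H3K4me3 peaks therefore met H3K4me1 in nearly every case, yet were rarely held by it whole.

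**Figure D3:**
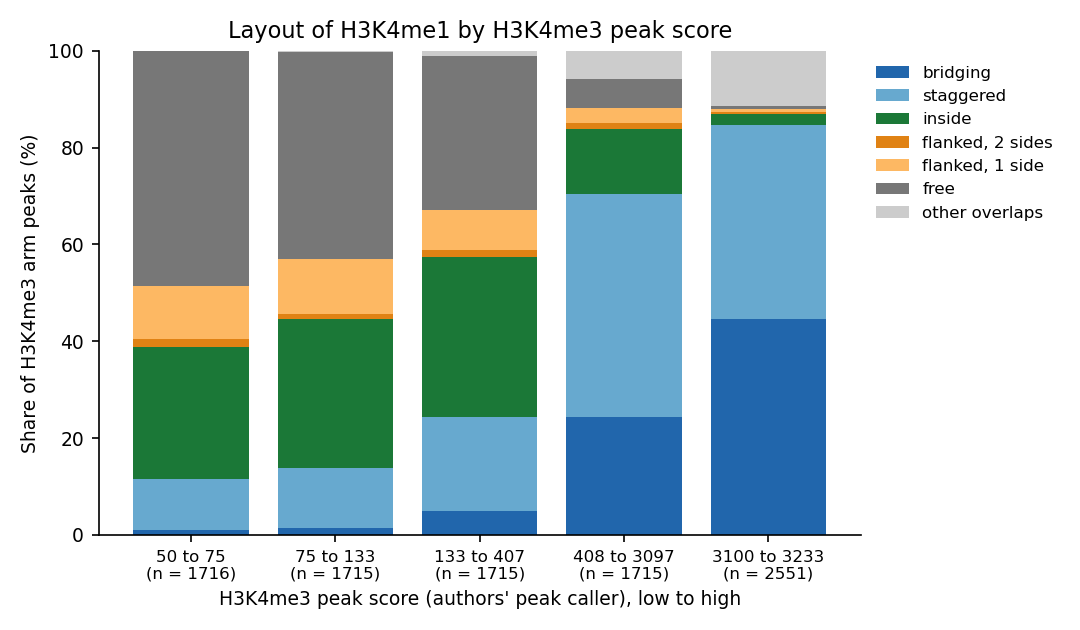
Share of H3K4me3 arm peaks (%) in each layout, stacked, by class of H3K4me3 peak score from low to high. The first 4 classes divide the peaks below 3100 equally and the last holds the 2551 peaks at or above 3100, where bridging reaches 44.6% and free 0.470%.

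Width moved with layout as well. Covered peaks had a median width of 1417 bp, against 900 bp for peaks flanked on 2 sides, 999 bp for peaks flanked on 1 side and 968 bp for free peaks. Bridging peaks were widest of the 3 main covered geometries with a median of 2186 bp, followed by staggered peaks with 1318.5 bp and inside peaks with 1066 bp. A wider peak has more chance of touching another, so scores were also compared within 4 equal classes of H3K4me3 width. In the second class, from 935 to 1243 bp, the median score was 1561 for the 190 bridging peaks and 1646 for the 745 staggered peaks, against 124 for the 550 inside peaks. In the narrowest class, from 293 to 934 bp, the medians were 257, 133 and 74.5. In the widest class, from 1856 bp upwards, bridging and staggered peaks stood at 3100 and inside peaks at 420. Covered exceeded free peaks in median score in all 4 classes, by little in the narrowest (84.2 against 69.0) and most in the widest (3100 against 272). The share of covered peaks was 44.1% in the narrowest class and 90.0% in the widest.

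At the deposited list lengths the other 4 lists followed the layouts in a graded way, most steeply for H3K27ac. H3K27ac was found at 85.8% of covered peaks (85.0 to 86.7), 49.5% of peaks flanked on 2 sides (39.2 to 59.8), 21.6% of peaks flanked on 1 side (18.3 to 25.1) and 5.95% of free peaks (132 of 2219). Over all H3K4me3 arm peaks the share was 62.5%, and for H3K27ac as for the other marks a hit means at least 1 shared bp. JIL-1, at 67.9% of all H3K4me3 arm peaks, was found at 81.8% of covered peaks, 61.9% flanked on 2 sides, 49.3% flanked on 1 side and 32.3% of free peaks. The decline was less steep than for H3K27ac, and nearly a like decline was seen for H3K9acS10ph. H3K9acS10ph, at 72.6% of all, was found at 87.6% of covered, 61.9% and 44.1% of flanked (2 sides and 1 side) and 36.8% of free peaks. H3K27acS28ph, at 29.0% of all, was found at 39.1% (37.9 to 40.3), 12.4% (6.56 to 20.6), 7.86% (5.83 to 10.3) and 5.72% (4.79 to 6.77) in the same order. Only 57.2% of the H3K27acS28ph list lay on the arms, against 98.5% to 99.7% of the other lists.

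Covered exceeded free peaks by 79.9 percentage points for H3K27ac (interval of the difference 78.5 to 81.2), by 50.8 for H3K9acS10ph (48.6 to 52.9), by 49.5 for JIL-1 (47.3 to 51.7) and by 33.4 for H3K27acS28ph (31.8 to 34.9). With the lists at the length of the shortest, 3223 arm peaks, they were 11.4, 5.01, 21.8 and 15.4 points in the order H3K27ac, H3K9acS10ph, JIL-1 and H3K27acS28ph, so that JIL-1 and not H3K27ac had the largest. That setting also kept only the H3K4me3 peaks of highest score, of which 2551 stood at or above 3100. At the deposited list lengths H3K27ac was found at nearly all peaks with that score, in every layout. The part of this in the ranking was not tested. Peaks flanked on 2 sides exceeded those flanked on 1 side by 27.9 points for H3K27ac (17.0 to 38.7), while for H3K27acS28ph that interval included 0 (4.51 points, -1.80 to 13.0). All 4 marks were present at 2197 covered peaks (33.8%), 11 peaks flanked on 2 sides (11.3%), 26 flanked on 1 side (4.35%) and 28 free peaks (1.26%). None of the 4 was present at 2.74% of covered, 13.4% and 27.6% of flanked (2 sides and 1 side) and 44.6% of free peaks. Where free peaks carried a mark, it was often H3K9acS10ph or JIL-1 without the others, and this was seen in flanked peaks too. H3K9acS10ph without the other 3 was found at 425 free peaks (19.2%), against 3.26% of covered peaks and 7.86% of all H3K4me3 arm peaks. It was at 15.2% of peaks flanked on 1 side and 12.4% flanked on 2 sides. JIL-1 without the other 3 was found at 349 free peaks (15.7%), against 1.74% of covered peaks and 6.31% of all. It was at 20.1% of peaks flanked on 1 side and 12.4% flanked on 2 sides. H3K27ac without the other 3 was rare in both, at 2.14% of covered and 0.856% of free peaks.

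**Figure D4:**
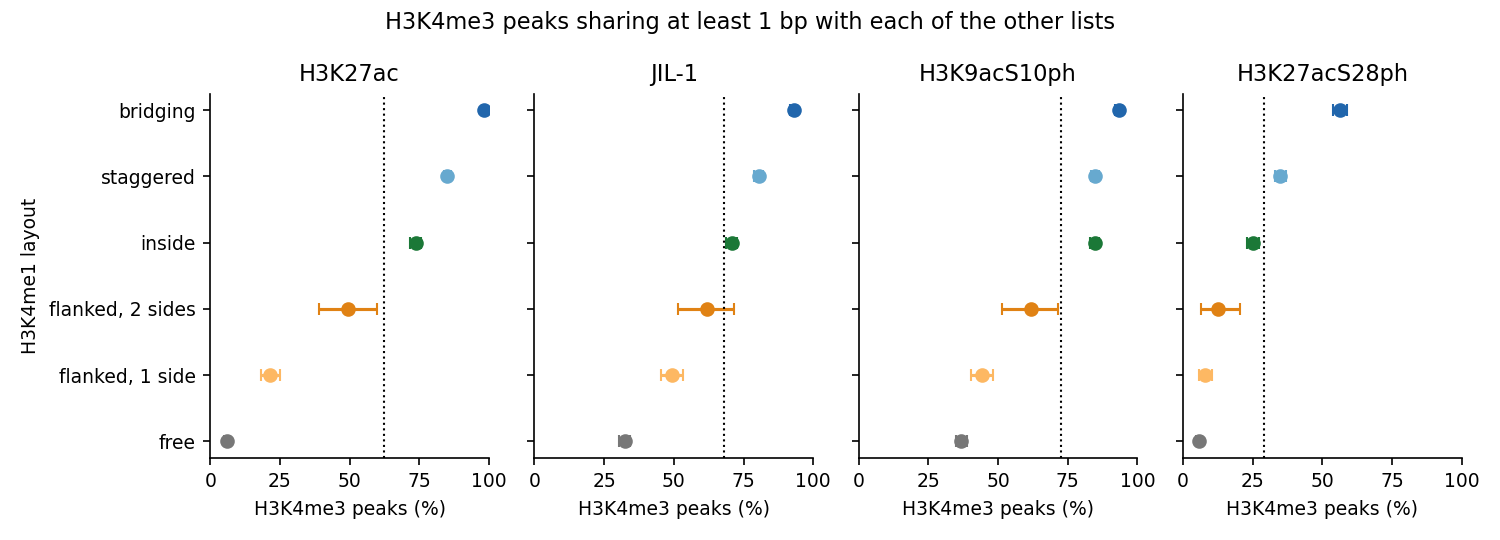
Share of H3K4me3 peaks (%) sharing at least 1 bp with a peak of each of the other 4 lists, by layout (points, with exact 95% binomial intervals). Dotted lines give the share over all H3K4me3 arm peaks, which is 62.5% for H3K27ac, and free peaks lie lowest in each panel.

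The differences between covered and free peaks held within each width class, at sizes that depended on it. For H3K27ac they ran from 60.2 points in the narrowest to 88.4 points in the widest class. For H3K27acS28ph they ran from 10.5 points (14.5% against 4.03%) to 55.0 points (62.3% against 7.30%). Free peaks wider than 1855 bp thus carried H3K27ac in 7.30% of 178 cases. Score gave a different picture. Among peaks that scored 133 to 407, H3K27ac was found at 71.8% of 1005 covered peaks, 41.7% of 24 flanked on 2 sides, 21.7% of 143 flanked on 1 side and 6.26% of 543 free peaks. Among peaks at or above 3100 it was found at 2510 of 2512 covered peaks, all 7 flanked on 2 sides, all 20 flanked on 1 side and 11 of 12 free peaks. For H3K27acS28ph the shares at that score were 63.9% of covered peaks and 66.7% of free peaks (34.9 to 90.1, n = 12). With 12 free peaks at that score, no difference between covered and free peaks was detectable. Below 3100 H3K27acS28ph was more frequent at covered than at free peaks in every score class. It was at 11.9% against 2.41% in the weakest class, and at 19.8% against 7.55% at scores of 133 to 407. At 408 to 3097 the covered share of 35.1% lay within the interval of the 100 free peaks (18.6 to 36.8). JIL-1 and H3K9acS10ph were also more frequent at covered peaks in these classes, at 53.7% against 21.6% and 66.7% against 23.4% in the weakest.

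Peaks of the other lists that touched free H3K4me3 peaks were also lower in score within their own lists. JIL-1 peaks had a median score of 320 at covered, 306 at peaks flanked on 2 sides, 184 at peaks flanked on 1 side and 113 at free H3K4me3 peaks, and of 101 where no H3K4me3 peak was touched. H3K9acS10ph peaks had medians of 866, 444, 214 and 114 in the same 4 layouts. For H3K27acS28ph the range was narrower and the order differed. Its medians were 157 at covered, 179 at peaks flanked on 2 sides (n = 12), 116 at peaks flanked on 1 side and 86.0 at free peaks. Where no H3K4me3 peak was touched it was 106. H3K27ac peaks had a median of 3100, where scores pile up, at covered and flanked peaks and of 2541.5 at free peaks.

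Over all widths and scores and at the deposited list lengths, bridging peaks carried the other marks more often than staggered and inside peaks. H3K27ac was found at 98.3% of bridging, 85.1% of staggered and 73.7% of inside peaks. JIL-1 was found at 93.1%, 80.5% and 70.7%, and H3K27acS28ph at 56.3%, 34.9% and 25.1%. H3K9acS10ph differed least, with 93.3%, 84.9% and 84.7%. These differences varied with peak width and with H3K4me3 score. The H3K27acS28ph difference between bridging and inside peaks was 31.2 points over all widths (28.1 to 34.3) and 24.3 points in the widest class (16.8 to 31.6). In the second class its interval included 0 (3.13 points, -4.30 to 11.0), and in the narrowest class it did so too, with 9.09% of 44 bridging against 15.8% of 669 inside peaks (-6.75 points, -14.0 to 6.11). H3K9acS10ph was lower in bridging peaks there, at 56.8% of bridging and 79.5% of inside peaks (-22.7 points, -38.8 to -7.52). The H3K27ac difference stayed above 0 in all 4 classes, from 9.67 to 25.6 points. With all 6 lists at 3223 arm peaks, the H3K27acS28ph difference between bridging and inside peaks was -0.543 points (-12.6 to 12.7), which cannot be told from 0. Among the middle 50% of H3K4me3 widths it was 9.93 points. Within score classes the order also changed. H3K27acS28ph was less frequent at bridging than at inside peaks in every score class, in some by little. Among peaks that scored 408 to 3097, H3K27acS28ph was found at 34.6% of 419 bridging, 30.8% of 791 staggered and 51.3% of 230 inside peaks. At or above 3100 it was found at 69.2% of bridging and 75.4% of 61 inside peaks (62.7 to 85.5). H3K9acS10ph was less frequent at bridging than at inside peaks in every class below 3100, but not at or above it (97.3% and 91.8%). Among peaks that scored 133 to 407, H3K9acS10ph was found at 71.4% of 84 bridging and 91.0% of 567 inside peaks. H3K27ac in the same class was at 85.7% of bridging, 59.0% of staggered and 78.5% of inside peaks. The part of score in these differences was not tested.

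Along the bridging peaks JIL-1 and H3K27acS28ph lay more often over the H3K4me1-free gap than over the parts beside it. In the 1583 bridging peaks with 2 H3K4me1 peaks, JIL-1 was present at 85.7% of gap centres (83.9 to 87.4), against 66.0% and 68.2% at the middles of the lower- and higher-coordinate parts that lay under H3K4me1. H3K27acS28ph was present at 46.4% of gap centres (44.0 to 48.9), against 35.2% and 34.4%. H3K9acS10ph was nearly even at 92.8%, against 92.1% and 92.2%, and so was H3K27ac at 97.5%, against 95.1% and 94.9%. Peaks of H3K27ac and H3K9acS10ph are wider than those of the other pair, with medians of 2522 and 2228 bp against 1076 bp for JIL-1 and 1452 bp for H3K27acS28ph. Gap centres lay a median of 278 bp from the H3K4me3 midpoint, while the parts under H3K4me1 reached the edges of the H3K4me3 peak. The parts of mark width and of distance from the H3K4me3 midpoint in this were not tested.

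The staggered layout allows each H3K4me3 peak to be turned so that H3K4me1 lies on the same side. Seen this way, JIL-1 and H3K27acS28ph midpoints lay mostly on the open side, and H3K9acS10ph midpoints were divided more evenly. Where exactly 1 peak of a mark met the H3K4me3 peak, the JIL-1 midpoint lay on the H3K4me1 side of the H3K4me3 midpoint in 496 of 1748 cases (28.4%, 26.3 to 30.6), with a median offset of -268 bp, where negative values lie towards the open side. For H3K27acS28ph it did so in 284 of 860 cases (33.0%, 29.9 to 36.3), and for H3K9acS10ph in 53.1% of 2134 (50.9 to 55.2). For H3K27ac the share was 44.7% (42.5 to 46.8), but it was 52.3% with the upper 50% of the H3K4me1 list by score. That setting gave 59.2% for H3K9acS10ph (57.0 to 61.4) and 40.2% for H3K27acS28ph, and lists at the length of the shortest gave 59.1% and 43.6%. JIL-1 was present at 47.2% of positions 500 bp from the midpoint on the H3K4me1 side, against 67.4% on the open side. For H3K9acS10ph the same positions gave 81.9% and 80.4%.

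Neighbouring H3K4me3 peaks moved with these values. At 500 bp beyond the edge, another H3K4me3 peak was present at 23.3% of staggered peaks on the H3K4me1 side, against 37.8% on the open side. Staggered peaks with no other H3K4me3 peak within 2000 bp, and no other H3K4me1 peak within that distance of the open edge, numbered 404. Among them the JIL-1 midpoint lay on the H3K4me1 side in 70 of 275 cases (25.5%, 20.4 to 31.0) and the H3K27acS28ph midpoint in 35 of 99 (35.4%, 26.0 to 45.6). The H3K27ac share was then 57.7% (52.1 to 63.2) and the H3K9acS10ph share 65.8% (60.3 to 71.0). In these isolated peaks H3K27ac was present 500 bp beyond the edge at 32.2% on the H3K4me1 side, against 9.90% on the open side. H3K9acS10ph was present there at 27.5% and 8.91%, and JIL-1 at 17.8% (14.2 to 21.9) and 15.8% (12.4 to 19.8). H3K27ac and H3K9acS10ph thus reached this far more often on the H3K4me1 side than on the open side, while for JIL-1 no difference between the sides was detectable. JIL-1 peaks are the narrower, as given above, and the part of width in this was not tested.

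**Figure D5:**
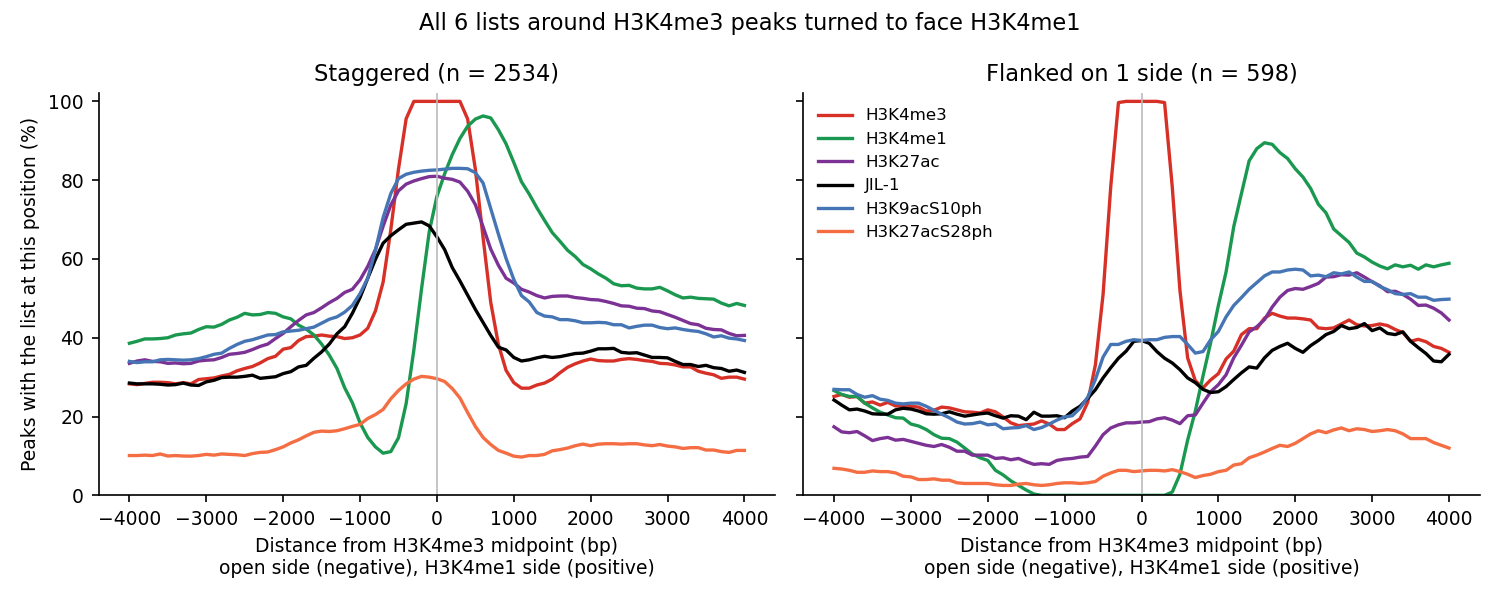
Share of H3K4me3 peaks (%) with a peak of each of the 6 lists at each distance (bp) from the H3K4me3 midpoint, with H3K4me1 turned to positive distances, for 2534 staggered peaks and 598 peaks flanked on 1 side. In staggered peaks JIL-1 stands at 47.2% at +500 bp on the H3K4me1 side and at 67.4% at -500 bp on the open side.

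Peaks flanked on 1 side differed from staggered peaks in the midpoints of JIL-1 and H3K27acS28ph, which did not lie mostly on the open side. As in the isolated staggered peaks, H3K27ac and H3K9acS10ph were more frequent on the H3K4me1 side than on the open side. At 500 bp beyond the edge H3K27ac was present at 29.6% on the H3K4me1 side, against 9.53% on the open side, and H3K9acS10ph at 41.8% against 17.1%. For H3K27acS28ph the values were 5.85% (4.11 to 8.05) and 3.01% (1.79 to 4.72), and for JIL-1 26.3% (22.8 to 30.0) and 19.6% (16.5 to 23.0). Both sides belong to the same 598 peaks. H3K27acS28ph was present on the H3K4me1 side only at 32 and on the open side only at 15. JIL-1 was so at 123 (20.6%, 17.4 to 24.0) and 83 (13.9%, 11.2 to 16.9). The JIL-1 midpoint lay on the H3K4me1 side in 141 of 278 cases (50.7%, 44.7 to 56.7). The H3K27acS28ph midpoint did so in 34 of 45 (75.6%, 60.5 to 87.1). For H3K27ac the share was 69.5% of 128 (60.8 to 77.4), and for H3K9acS10ph 61.4% of 259 (55.2 to 67.4). Another H3K4me3 peak was present 500 bp beyond the edge at 27.8% on the H3K4me1 side, against 12.5% on the open side. The part of these neighbouring peaks in the result was not tested.

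Among peaks that were not covered, H3K27ac became less frequent with distance from H3K4me1. H3K27ac was found at 31.1% of the 228 peaks with H3K4me1 within 250 bp, 28.8% at 251 to 500 bp, 21.1% at 501 to 750 bp and 16.7% at 751 to 1000 bp. Just outside the limit, it was found at 7.96% of 113 peaks at 1001 to 1250 bp, and at 7.44% of the 753 peaks more than 10000 bp away. JIL-1 declined later, with 53.1% within 250 bp, 45.1% at 1001 to 1250 bp and 24.4% beyond 10000 bp. H3K9acS10ph was at 53.1%, 31.9% and 37.5% at the same distances. The median H3K4me3 score changed little, at 107, 99.6 and 86.1. The 5 peaks just inside the limit of 1000 bp had gaps of 993 to 999 bp and scores of 106 to 627, and the 5 just outside had gaps of 1004 to 1017 bp and scores of 69.8 to 326. Peaks flanked on 2 sides had their nearer H3K4me1 edge at a median of 280 bp and the farther at 625 bp, and those flanked on 1 side had the nearer edge at 448 bp.

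From the H3K4me1 side, 6298 of the 9529 peaks overlapped H3K4me3 (66.1%). Of these, 4485 held or touched 1 H3K4me3 peak, 1474 met 2 and 339 met 3 or more. H3K4me1 peaks widened with the number of H3K4me3 peaks, with medians of 1678, 2754.5 and 6563 bp, and a wider peak has more room to meet several. Another 614 had an H3K4me3 peak within 1000 bp without overlap, and 2617 (27.5%) had none within that distance. H3K27ac was found at 92.7% of H3K4me1 peaks with H3K4me3, at 46.3% of those with H3K4me3 only nearby and at 24.4% of those with none. For H3K27acS28ph the shares were 46.5%, 5.37% and 2.22%. The shares over all H3K4me1 arm peaks are not given here. These 3 classes also differed in H3K4me1 width, with medians of 1946, 1382.5 and 1590 bp in the same order. Their median H3K4me1 scores were 1554, 385 and 554. The parts of width and score in the mark shares were not tested.

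H3K4me3 was found in 5592 of all 9523 gaps between neighbouring H3K4me1 peaks (58.7%), and gaps of 501 to 1000 bp held it most often. Of the 2552 gaps of at most 500 bp, 1419 held H3K4me3 (55.6%, 53.7 to 57.5), and 1202 lay wholly under 1 H3K4me3 peak. Of the 1561 gaps of 501 to 1000 bp, 1139 held H3K4me3 (73.0%, 70.7 to 75.2). The share was 56.6% for gaps of 1001 to 2000 bp and 47.0% for gaps of 2001 to 5000 bp. It was 60.2% for longer gaps still.

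Layouts clustered along the arms. The next H3K4me3 peak along the arm was also covered for 78.6% of covered peaks (77.5 to 79.6), against 39.9% of free peaks (37.9 to 42.0). The next was free for 13.8% of covered and 53.2% of free peaks. Over all H3K4me3 arm peaks 69.0% were covered and 23.6% free. Up to 7 H3K4me3 peaks met the same H3K4me1 peak, and the part of such sharing in the clustering was not tested. Covered peaks lay closer together, with a median of 562 bp to the nearest other H3K4me3 peak, against 2691 bp for free peaks. This clustering means that neighbouring peaks are not independent, and that the intervals given are too narrow.

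The layouts differed moderately between the large arms. Covered peaks made up from 65.9% of the H3K4me3 peaks on 2L (63.4 to 68.3) to 71.6% on X (69.4 to 73.7), and free peaks from 21.6% on X to 26.2% on 2L. Inside peaks were fewest on 2L, at 15.5% (13.7 to 17.4), against 21.8% on 2R (20.0 to 23.7) and 21.8% on X (19.9 to 23.9). H3K27ac at peaks flanked on 1 side ran from 11.1% of 135 on 3R (6.35 to 17.7) to 40.4% of 99 on 2L (30.7 to 50.7). At peaks flanked on 2 sides it ran from 29.4% of 17 on X (10.3 to 56.0) to 78.9% of 19 on 2L (54.4 to 93.9). These intervals are wide, and the difference between these extremes was not tested. Chromosome 4, a small and largely heterochromatic chromosome, differed more. Of its 46 H3K4me3 peaks, 18 were covered (39.1%, 25.1 to 54.6) and 23 were free. None was inside an H3K4me1 peak and 1 was bridging. H3K27ac was found at 78.3% of its 23 free peaks, against 2.67% (3R) to 9.49% (2L) of the free peaks of the other arms, and JIL-1 at 69.6%, against 28.7% (2L) to 35.6% (2R).

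Named regions are given 1-based, on scaffolds with the names of release 5 of the genome, and without gene names, since no annotation of that release was used here. The highest-scoring covered H3K4me3 peak lay at 3L:12109023-12110255. It was staggered, with 64.8% of its length under 1 H3K4me1 peak, and overlapped H3K27ac and both phosphoacetylated marks but not JIL-1. The following 2 lay at X:6576503-6579726 and X:513543-516399. Both were bridging and overlapped all 4 other marks, with 80.1% and 40.0% of their length under H3K4me1. The highest-scoring peaks flanked on 2 sides lay at 2R:4982557-4983949, at 2R:19947747-19950146 and at X:19491823-19493660, and each overlapped all 4 other marks. The first had H3K4me1 edges at 342 and 303 bp.

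Among peaks flanked on 1 side, the highest-scoring lay at 3L:3457032-3461098, at X:9448365-9450826 and at X:694536-696579. The 2 on X overlapped all 4 marks, and that on 3L overlapped H3K27ac alone. Its H3K4me1 edges were 640 bp away on the nearer and 41739 bp on the farther side. The highest-scoring free peak lay at 2L:22735546-22736519, with the nearest H3K4me1 at 78798 bp, and overlapped all 4 marks. The peak at X:15031869-15033654 also overlapped all 4, while that at 3R:19136047-19140622, 4576 bp wide, overlapped JIL-1 alone. The H3K4me1 peaks that met most H3K4me3 peaks, 7 each, lay at 2R:7476671-7506404, at 2L:117145-143417 and at 3L:20377561-20394462. H3K4me3 covered 31.5%, 38.8% and 80.1% of them, and the last overlapped no H3K9acS10ph peak, against 5 and 4 such peaks in the other two.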

How the data were processed

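Kc167 cells were crosslinked for 10 min in 1% formaldehyde, their chromatin was sheared by sonication to 200 to 1000 bp, and libraries were selected for 200 to 300 bp, per the labels' protocols. Per the submitters' processing notes, Bowtie 0.12.5 served as aligner. Each deposited peak is named after MACS. Caller version, caller settings, build and any input control were not stated in the labels or headers. The authors deposited 1 peak list per library with a start, an end (other values, in bp) and a score per peak. The score was used only within a list: the lowest values lie at 50.0 to 50.4 and many stand at 3100. No peaks of 1 list overlapped each other. Starts were taken as 0-based and printed as 1-based. The lists give no read counts, so the precision that depth gives is unknown.

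Groups are the antibodies of the labels. Layouts, overlaps (at least 1 bp), gaps and signed midpoint distances were computed with Python 3.11.15, pandas 2.3.3, scipy 1.17.1 and numpy 2.4.6, and tested on simulated peaks of known layout. Intervals of differences combine those of the 2 shares. With 1 library per antibody no p-values are given. Alternatives varied the flank distance, overlap, list length, width and scaffolds. The members, layouts, tests and named-region rule (the 3 highest scores per layout, ties by width, and the 3 H3K4me1 peaks with most H3K4me3 peaks) were chosen with earlier results of these data known; the covered geometries and the orientation were added after seeing the data. The gene table at hand describes release 6 of the genome and was not used here.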

Additional observations from a re-analysis of the deposited data

How the results depend on the processing

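Across 11 other settings, 164 values of 18 results were recomputed: 66 stayed within the interval of the reported value, 97 moved beyond it and 1 had the other sign. That value, H3K27acS28ph, bridging minus inside, was -0.543 points (-12.6 to 12.7) with all lists reduced to 3223 arm peaks. It cannot be told from 0 in either direction, and the cause was not tested. Values below run, where they moved, in the order: shares covered, flanked on 2 sides, flanked on 1 side and free (%), then covered minus free differences (points).

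With flanking within 500 bp, 0.329% were flanked on 2 sides, 3.97% on 1 side and 26.7% free, and the H3K27ac difference was 78.4. Within 2000 bp these shares were 2.44%, 9.16% and 19.4%, and the JIL-1 difference was 51.7. When sharing needed 50% of the shorter peak, 60.4% were covered, 6.31% and 9.69% flanked, 32.6% of covered peaks were inside, and 54.3% of H3K4me1 peaks held H3K4me3. In this setting peaks with a smaller overlap counted as flanked, and the free share stayed at 23.6%. The differences were 77.3 for H3K27ac and 46.5 for JIL-1, and H3K27acS28ph differed by 50.7 between bridging and inside peaks.

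With the upper 50% of each list by score, 66.2% were covered, 0.467% and 6.93% flanked and 26.4% free. Of covered peaks 13.2% were inside, and 65.1% of H3K4me1 peaks held H3K4me3. The differences were 36.6 (H3K27ac), 26.5 (JIL-1), 22.3 (H3K9acS10ph) and 17.1 (H3K27acS28ph), with 497 bp in median width and 646 in median score. Bridging minus inside was 2532.3 in median score and 15.9 for H3K27acS28ph, and 32.0% of JIL-1 midpoints lay on the H3K4me1 side of staggered peaks. With all lists at the shortest length, 46.8% were covered, 0.341% and 7.82% flanked, 45.0% free and 4.9% of covered peaks inside, and 45.9% of H3K4me1 peaks held H3K4me3. The differences were 11.4 (H3K27ac), 21.8 (JIL-1), 5.01 (H3K9acS10ph) and 15.4 (H3K27acS28ph), with 544 bp in width. Both score differences were 0.0. Of the 3223 H3K4me3 peaks kept, 2551 scored at or above 3100, where scores pile up, so this setting cannot show a score difference. The JIL-1 share on the H3K4me1 side was 39.1%. With the upper 50% of H3K4me1 alone, 50.1% were covered, 0.552% and 7.34% flanked, 42.0% free and 34.7% of covered peaks inside, and 75.9% of H3K4me1 peaks held H3K4me3. The differences were 54.5 (H3K27ac), 36.2 (JIL-1), 37.0 (H3K9acS10ph) and 28.5 (H3K27acS28ph), with 35.0 for H3K27acS28ph between bridging and inside peaks and 35.4% for the JIL-1 side.

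With windows of 1000 bp, 40.9% were covered, 5.14% and 18.0% flanked and 35.9% free, and 39.7% of H3K4me1 windows held H3K4me3. The differences were 42.9 (H3K27ac), 28.5 (JIL-1), 28.6 (H3K9acS10ph) and 22.5 (H3K27acS28ph), with 1865.4 in score and 37.3% for the JIL-1 side. Equal windows cannot lie inside each other, so results on the inside layout and on width were not run there. Among the 4715 peaks of the middle 50% of widths, 71.0% were covered, 0.785% flanked on 2 sides and 21.8% free, and 34.7% of H3K4me1 peaks held one of these fewer H3K4me3 peaks. The differences were 43.5 (JIL-1), 42.0 (H3K9acS10ph) and 24.9 (H3K27acS28ph), with 124 bp in width and 1033.4 in score. Bridging minus inside was 2459.1 in score and 9.93 for H3K27acS28ph, and the JIL-1 side share was 25.1%, as against 25.5% in isolated staggered peaks. On 2L, 2R, 3L and 3R alone 67.1% of H3K4me1 peaks held H3K4me3, and with all scaffolds no value moved. The JIL-1 side share stayed below 50% in every setting run, as did that of H3K27acS28ph (31.5% to 43.6%), while that of H3K27ac ran from 38.6% to 57.8% and that of H3K9acS10ph from 48.4% to 65.8%.

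Depth is unknown, and with 1 library per antibody the lists' lengths and widths cannot be told apart from antibody and depth. No paired analysis was possible because each antibody has 1 library and no result comes from a test between samples.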

Other observations

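Off the arms, 79 H3K4me3 peaks lay on the heterochromatin scaffolds, U and Uextra. There 16 were covered by H3K4me1 (20.3%, 12.0 to 30.8), 1 was flanked on 2 sides, 3 were flanked on 1 side and 59 were free (74.7%, 63.6 to 83.8). The H3K4me1 list held 30 peaks on the heterochromatin scaffolds and 0 on U and Uextra, where all 20 H3K4me3 peaks were therefore free.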
